A study of Mus musculus with 6 samples.

Results

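The 10 genes described here encode activin subunits, 2 growth and differentiation factors, the follistatin family and activin receptors: Inhba, Inhbb, Gdf11, Gdf15, Fst, Fstl3, Fstl1, Acvr1, Acvr1b and Acvr2a. They were chosen by gene symbol from the 55364 genes listed in the tables of counts, and all 10 had at least 1 read. RNA came from primary mouse lung fibroblasts (LFs) that had received 10 ng/ml TGFβ1 in serum-free medium for 24 h, in 3 libraries of wt LFs and 3 libraries that the labels call TKS5 knock-out. Per the study's methods, LFs were isolated from young adult C57Bl6/J mice by collagenase digestion and used at early passage, and the second genotype is Tks5+/-, from mice with 1 disrupted copy of Sh3pxd2a in all tissues. All 6 libraries were TGFβ-treated and no untreated library was used here, so that every difference below is between the labelled groups under TGFβ. Other differences between these groups, such as in the animals or in the cells of the cultures, cannot be told apart from genotype. Nothing in the labels says whether replicates came from separate animals, and p-values measure the spread between these libraries only.

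Activins are dimers of inhibin β subunits and belong to the TGFβ superfamily. They bind the type II receptor Acvr2a, which recruits the type I receptor Acvr1b, and Smad2 and Smad3 are then phosphorylated and enter the nucleus with Smad4. Follistatin and follistatin-like 3 are secreted proteins that wrap around activin and keep it from its receptors, and both also bind Gdf11. In fibroblasts activin A is known as a TGFβ-inducible factor that promotes matrix production. Gdf15 is a distant member of the superfamily that is induced by cell stress and acts through a receptor of the hindbrain.

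The libraries were made by Quant-Seq, which primes cDNA synthesis on poly(A) tails and so reads each transcript at its end, whatever its length. Library totals ran from 1344507 to 2369882 counts, and 10346 genes had enough reads to be tested with edgeR's quasi-likelihood test, which gave every adjusted p below. A gene counts as called with an adjusted p under 0.05 and a change of at least 1.2-fold. Levels are given as CPM, the counts relative to the size of the library after TMM scaling. Over all tested genes, 44.9% were called, 22.1% lower and 22.8% higher in the knockout-labelled libraries, and the CPM of the 2 groups did not overlap in 53.8%. Sh3pxd2a itself, on chromosome 19, gave 205, 190 and 284 reads in the wt libraries, in the order of replicates 1, 2 and 3, against 238, 258 and 260 in the knockout-labelled libraries (log2 fold change 0.29, standard error 0.20, adjusted p = 0.249). Its reads come from the transcript end and not from the disrupted exon. Whether the disrupted copy still gives such ends was not tested, so these reads do not check the genotype. The paper reports lower Tks5 mRNA in Tks5+/- LFs by Q-RT-PCR, which these reads did not show. Every direction given here rests on the labels.

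Markers of other cells moved with the genotype labels. The fibroblast list summed to 13041 to 14640 CPM in the wt libraries and 17019 to 19400 CPM in the knockout-labelled libraries, with 1 of 10 genes called lower and 4 higher. The largest part of this sum was S100a4 (12765, 15595 and 29031 counts, then 15133, 22404 and 25105). The list moved both ways, with Pdgfrb at 352, 345 and 367 counts and then 199, 178 and 118, and Thy1 at 53, 82 and 182 and then 390, 280 and 362. The macrophage list (11 genes, 10 tested, 5 called lower) summed to 324 to 1890 CPM in wt LFs, the highest in replicate 3, and to 126 to 145 CPM in the knockout-labelled libraries, in which Ptprc and Adgre1 were at 0. Cybb had 67, 66 and 449 counts and then 1, 3 and 1. Other genes of the list kept reads, such as Lyz2 (298, 337 and 3502 counts, then 139, 157 and 207), C1qa (16, 11 and 129, then 14, 7 and 15) and Cd14 (9, 10 and 26, then 6, 12 and 10). The endothelial list summed to 106 to 130 CPM and 45.6 to 59.9 CPM, and 3 of 4 tested genes were called lower. Pecam1 (7, 10 and 21 counts in wt), Tek (5, 1 and 6) and Vwf (0, 1 and 9) were low in wt and at 0 in all knockout-labelled libraries. Egfl7 had 91, 118 and 203 counts and then 35, 33 and 46, while Ramp2 did not fall (48, 48 and 56 counts, then 64, 45 and 66). The mesothelial list summed to 27.8 to 38.6 CPM and 5.12 to 14.3 CPM, with both tested genes called lower. The epithelial list (9 genes, 3 tested) summed to 32.1 to 66.4 CPM and 29.7 to 62.0 CPM, but its genes moved in opposite directions. Cldn4 (23, 15 and 50 counts, then 0, 3 and 0) and Krt18 were called lower, Cdh1 had 17, 8 and 58 counts and then 0 in every knockout-labelled library without being tested, and Ager was called higher (20, 18 and 35 counts, then 68, 103 and 57). The list of smooth muscle and pericytes summed to 322 to 346 CPM and 446 to 576 CPM, with 4 of 5 tested genes called lower. Its higher sum came from Cnn1 (341, 507 and 686 counts, then 743, 902 and 1077), while Myh11, Des, Cspg4 (37, 39 and 58 counts, then 4, 2 and 4) and Notch3 fell. In RNA of whole cultures, fewer cells of a type and less RNA per cell cannot be told apart. Wt replicate 3 thus stood apart in its macrophage reads, and results without it are given below. Macrophages are known to make activin A, Gdf15 and Tgfbi, and the part of these cells in the results was not tested.

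Of the 10 genes, 8 were tested, and 3 of these were called, all lower in the knockout-labelled libraries: the activin βA subunit gene Inhba, the activin binder Fstl3 and Gdf15. None was called higher in the main edgeR fit, by DESeq2 or by limma-voom, and 1 gene, Fst, was higher at an unadjusted p under 0.05 in the main edgeR fit. Fst and Gdf11 were called higher in some alternative edgeR fits given below. The remaining 5 tested genes, Fst, Gdf11, Fstl1, Acvr1 and Acvr2a, were not called, and Inhbb and Acvr1b had too few reads. From the same libraries, by other tests, the paper had named Inhba and Fstl3 among invasion-associated genes lower in Tks5+/- LFs. The 3 calls among 8 lie near the share of the whole table, as do the 4 of 8 genes in which the CPM of the groups did not overlap, 3 with lower and 1 with higher values in the knockout-labelled libraries. The median log2 fold change of the 8 genes was -0.29, beside -0.046 over all genes tested, and 4 of the 8 values were below 0.

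**Figure D1:**
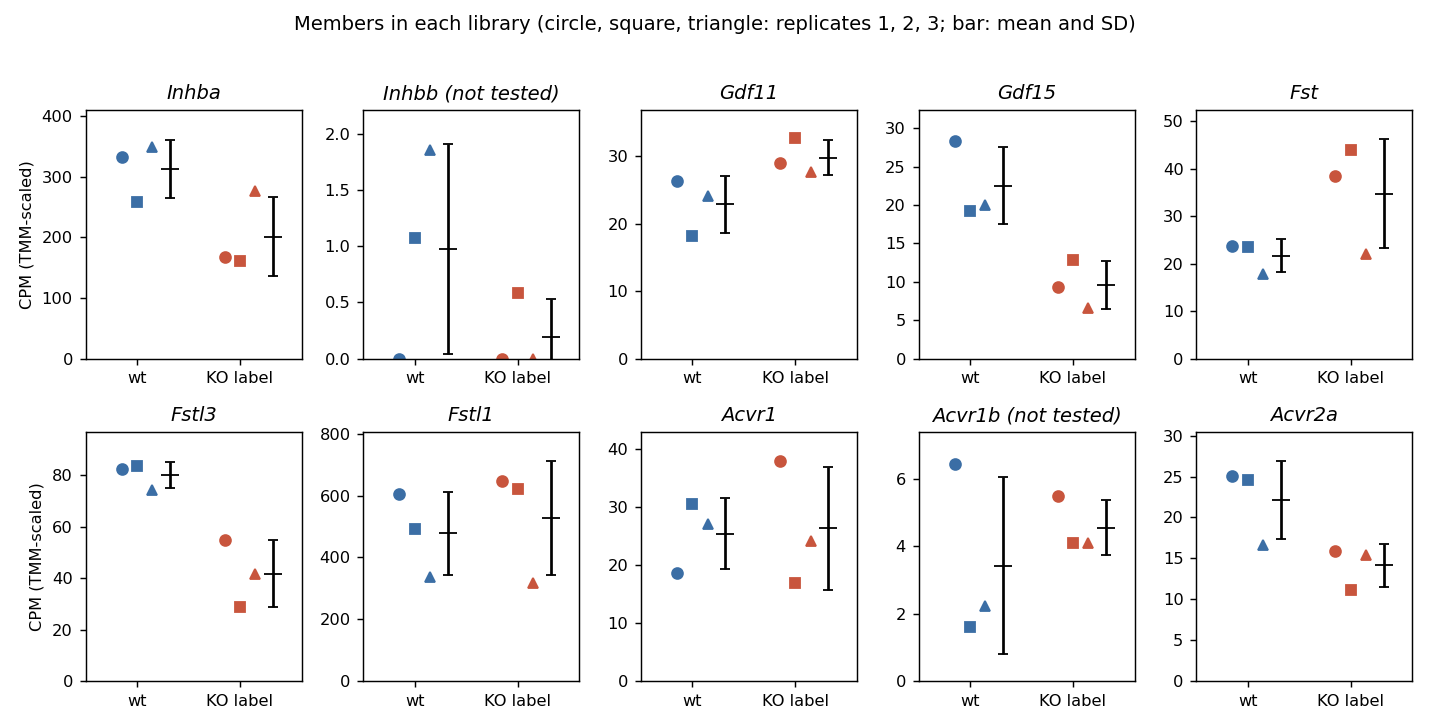
CPM (TMM-scaled, linear axis from 0) of each of the 10 genes in each library, wt in blue and knockout-labelled libraries in red, with circle, square and triangle for replicates 1, 2 and 3 and a bar for the mean and SD of 3 libraries. Gdf15, Fstl3 and Acvr2a were lower in all 3 knockout-labelled libraries than in any wt library, Gdf11 was higher, and knockout-labelled replicate 3 lay nearest to wt LFs for Inhba and Fst.

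Inhba (ENSMUSG00000041324, chromosome 13 of GRCm38, 16011851 to 16031621, forward strand) encodes the subunit whose dimer is activin A. Its counts were 516, 481 and 939 in the wt libraries, in the order of replicates 1, 2 and 3, and 304, 274 and 539 in the knockout-labelled libraries. The levels were 332, 257 and 348 CPM in the wt libraries and 167, 160 and 276 CPM in the knockout-labelled libraries. Replicates 1 and 2 of the knockout-labelled libraries lay well below every wt library, while replicate 3 lay above wt replicate 2, so that the groups overlapped. Inhba fell from 313 ± 48.4 CPM (SD, n = 3) to 201 ± 64.9 CPM (SD, n = 3), a log2 fold change of -0.64 (95% interval -1.11 to -0.17, standard error 0.23, adjusted p = 0.0261), or 1.55-fold. An exact two-sided permutation test of the CPM gave p = 0.2, where 3 libraries against 3 cannot go below 0.1. The call was lost without wt replicate 1 (-0.59, adjusted p = 0.0732), without wt replicate 3 (-0.55, adjusted p = 0.0756), and without replicate 1 (-0.47, adjusted p = 0.133) or replicate 2 (-0.46, adjusted p = 0.148) of the knockout-labelled libraries. It was also lost once length and GC content of the transcripts were corrected for (-0.29, adjusted p = 0.298), while the authors' normalized counts gave -1.21 (adjusted p = 4.43e-04).

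Gdf15 (ENSMUSG00000038508, chromosome 8, 70629393 to 70632456, reverse strand) had 44, 36 and 54 counts in the wt libraries and 17, 22 and 13 in the knockout-labelled libraries. The levels were 28.3, 19.3 and 20.0 CPM in the wt libraries and 9.33, 12.9 and 6.65 CPM in the knockout-labelled libraries. The lowest wt library stood above the highest of the knockout-labelled libraries, so the groups did not overlap. Gdf15 fell from 22.5 ± 5.02 CPM (SD, n = 3) to 9.62 ± 3.12 CPM (SD, n = 3), a log2 fold change of -1.22 (95% interval -1.91 to -0.54, standard error 0.33, adjusted p = 0.00453), or 2.33-fold, the largest change among the 8 tested genes. It was called in each of 16 alternative fits, with adjusted p from 4.11e-04 to 0.0380, and was at -1.31 (adjusted p = 0.00740) without wt replicate 3, the library with the most macrophage reads. The macrophage list summed to 359 and 324 CPM in wt replicates 1 and 2, also above the 126 to 145 CPM of the knockout-labelled libraries. Leaving out replicate 3 therefore does not test the part of these cells.

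Gdf11 (ENSMUSG00000025352, chromosome 10, 128882295 to 128891718, reverse strand) encodes a close relative of myostatin that uses activin receptors. It had 41, 34 and 65 counts in the wt libraries and 53, 56 and 54 in the knockout-labelled libraries. The levels were 26.4, 18.2 and 24.1 CPM in the wt libraries and 29.1, 32.8 and 27.6 CPM in the knockout-labelled libraries. Every knockout-labelled library was above every wt library, by a margin smaller than the spread within wt LFs. The means were 22.9 ± 4.23 CPM (SD, n = 3) and 29.8 ± 2.65 CPM (SD, n = 3), a log2 fold change of 0.38 that was not called (95% interval -0.16 to 0.92, adjusted p = 0.242). Corrected for length and GC content of the transcripts it was 0.66 (adjusted p = 0.0479), and with scaling by library totals alone -0.042.

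Inhbb (ENSMUSG00000037035, chromosome 1, 119415465 to 119422248, reverse strand), the gene of the βB subunit, had 0, 2 and 5 counts in the wt libraries and 0, 1 and 0 in the knockout-labelled libraries. It was at or near 0 in all 6 libraries and was not tested. A library with 0 counts allows up to 3 counts, at most 1.93 CPM at these depths.

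Fstl3 (ENSMUSG00000020325, chromosome 10, 79777272 to 79782630, forward strand) encodes an activin binder of the follistatin family. It had 128, 156 and 200 counts in the wt libraries and 100, 49 and 81 in the knockout-labelled libraries. The levels were 82.4, 83.5 and 74.2 CPM in the wt libraries and 54.9, 28.7 and 41.5 CPM in the knockout-labelled libraries. The wt libraries lay close together and above all knockout-labelled libraries, which were more spread. Reads at the Fstl3 locus fell from 80.0 ± 5.09 CPM (SD, n = 3) to 41.7 ± 13.1 CPM (SD, n = 3), a log2 fold change of -0.94 (95% interval -1.42 to -0.45, standard error 0.24, adjusted p = 0.00262), or 1.91-fold. The locus was called in each of 16 alternative fits, with adjusted p from 2.02e-04 to 0.0252, and was at -0.99 (adjusted p = 0.00375) without wt replicate 3.

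The reads counted for Fstl3 were also counted for another gene. Prss57, a serine protease gene on the opposite strand, shares 1157 exonic bases with Fstl3 at its end and had the same count in every library, 128, 156, 200, 100, 49 and 81. The counts over these bases therefore did not separate the strands, and the fall belongs to Fstl3, to Prss57 or to both. Among 948 pairs of genes on opposite strands that share exonic bases and average at least 10 counts, 20 pairs had the same counts in all 6 libraries. The 948 include pairs that do not overlap at the counted ends. Pairs with close but unequal counts, such as Pcsk7 and Tagln, are not among the 20, so these numbers do not say how common shared reads are. The last exon of Acvr2a shares 446 bases with Orc4, an origin recognition gene on the opposite strand. Orc4 had 54, 64 and 77 counts in the wt libraries and 24, 37 and 44 in the knockout-labelled libraries, and its counts and those of Acvr2a differed in every library. Unequal counts do not show that no reads were shared, and how many were shared was not tested.

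**Figure D2:**
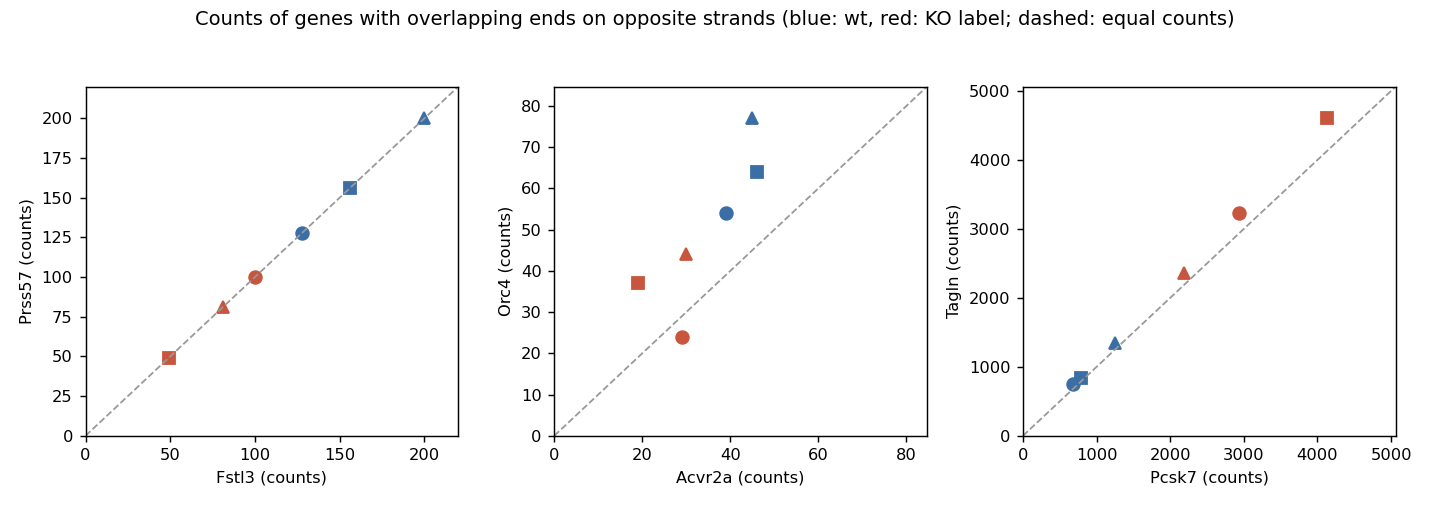
Counts per library (linear axes from 0) of Fstl3 against Prss57, Acvr2a against Orc4 and Pcsk7 against Tagln, 3 pairs with overlapping ends on opposite strands, wt in blue and knockout-labelled libraries in red, with the dashed line at equal counts. All 6 libraries lay on the line for Fstl3 and Prss57, close to it for Pcsk7 and Tagln, and away from it for Acvr2a and Orc4.

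Fst (ENSMUSG00000021765, chromosome 13, 114452290 to 114458951, reverse strand) encodes follistatin. It had 37, 44 and 48 counts in the wt libraries and 70, 75 and 43 in the knockout-labelled libraries. The levels were 23.8, 23.5 and 17.8 CPM in the wt libraries and 38.4, 43.9 and 22.0 CPM in the knockout-labelled libraries. Replicates 1 and 2 of the knockout-labelled libraries stood above all wt libraries, and replicate 3 stood within them. The means were 21.7 ± 3.40 CPM (SD, n = 3) and 34.8 ± 11.4 CPM (SD, n = 3), a log2 fold change of 0.69 that missed the threshold (95% interval 0.10 to 1.27, standard error 0.28, adjusted p = 0.0520). Without knockout-labelled replicate 3 it was 0.97 (adjusted p = 0.0102), and with RLE in place of TMM scaling 0.72 (adjusted p = 0.0442), and both of these fits called the gene. Over all 16 alternative fits the adjusted p ran from 0.0102 to 0.459.

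Fstl1 (ENSMUSG00000022816, chromosome 16, 37776873 to 37836514, forward strand) encodes a secreted glycoprotein of mesenchymal cells. It had 941, 918 and 908 counts in the wt libraries and 1178, 1062 and 618 in the knockout-labelled libraries. The levels were 606, 491 and 337 CPM in the wt libraries and 646, 621 and 316 CPM in the knockout-labelled libraries, so that replicate 3 was the lowest of each group and the groups overlapped. The log2 fold change was 0.15 (95% interval -0.40 to 0.69, adjusted p = 0.679), and its sign changed with the authors' normalized counts (-0.53), with library totals alone (-0.27) and without wt replicate 3 (-0.060).

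Of the receptor genes, Acvr2a (ENSMUSG00000052155, chromosome 2, 48814109 to 48903269, forward strand) encodes the type II receptor of activins. It had 39, 46 and 45 counts in the wt libraries and 29, 19 and 30 in the knockout-labelled libraries, and whether some of these reads belong to Orc4 was not tested. The levels were 25.1, 24.6 and 16.7 CPM in the wt libraries and 15.9, 11.1 and 15.4 CPM in the knockout-labelled libraries. The groups did not overlap, though wt replicate 3 came close to the knockout-labelled libraries. The log2 fold change of -0.62 was not called (95% interval -1.25 to 0.0015, standard error 0.30, adjusted p = 0.0974), except with scaling by library totals alone (-1.04, adjusted p = 0.00843).

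Acvr1 (ENSMUSG00000026836, chromosome 2, 58388644 to 58567157, reverse strand) encodes a type I receptor used mainly by bone morphogenetic proteins. Its levels were 18.7, 30.5 and 27.1 CPM in the wt libraries and 37.9, 17.0 and 24.1 CPM in the knockout-labelled libraries. The knockout-labelled libraries held both the highest and the lowest value. The log2 fold change was 0.041 (95% interval -0.57 to 0.66, adjusted p = 0.923). Acvr1b (ENSMUSG00000000532, chromosome 15, 101174067 to 101213684, forward strand), the type I receptor gene of activins, had 10, 3 and 6 counts in the wt libraries and 10, 7 and 8 in the knockout-labelled libraries, and was not tested.

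**Figure D3:**
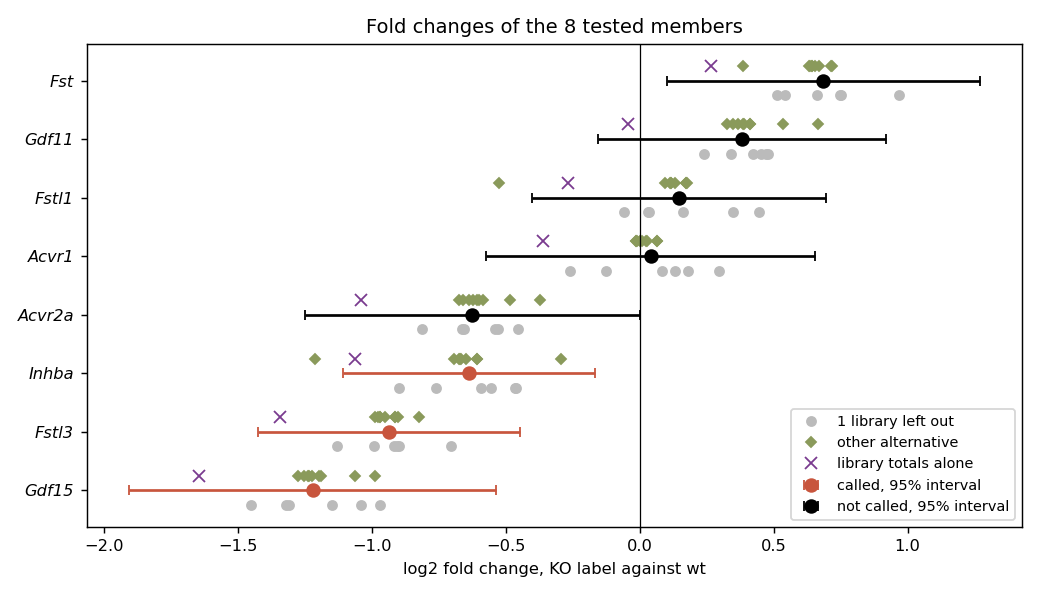
Log2 fold change of the 8 tested genes, knockout-labelled libraries against wt, with 95% intervals (red where called), above the values with 1 library left out (grey circles) and below those of the other alternatives (diamonds, with a cross for library totals alone). Gdf15 and Fstl3 were below 0 in all of them, Inhba was below 0 in all but not always called, and Fstl1 and Acvr1 lay on both sides of 0.

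The balance of a ligand and its binder can be read within a library, where scaling between libraries has no part. In wt replicates 1, 2 and 3 there were 13.8, 10.8 and 19.4 reads of Inhba for each read of Fst. In the knockout-labelled libraries there were 4.32, 3.64 and 12.4. Replicates 1 and 2 of the knockout-labelled libraries were below every wt library, and replicate 3 was above wt replicate 2. On the log2 scale the ratio was 3.83 ± 0.42 (SD, n = 3) in the wt libraries and 2.54 ± 0.96 (SD, n = 3) in the knockout-labelled libraries, a difference of -1.30 (exact two-sided permutation test, p = 0.2, smallest possible 0.1), which does not pass. It was -1.85 without knockout-labelled replicate 3.

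For Inhba and Fstl3 there were 4.02, 3.08 and 4.69 reads of Inhba for each read of the Fstl3 locus in the wt libraries and 3.03, 5.55 and 6.62 in the knockout-labelled libraries. These ranges overlapped. The log2 ratio was 1.95 ± 0.31 (SD, n = 3) and 2.27 ± 0.59 (SD, n = 3), a difference of 0.31 (exact two-sided permutation test, p = 0.5). With the authors' normalized counts the difference was -0.31.

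**Figure D4:**
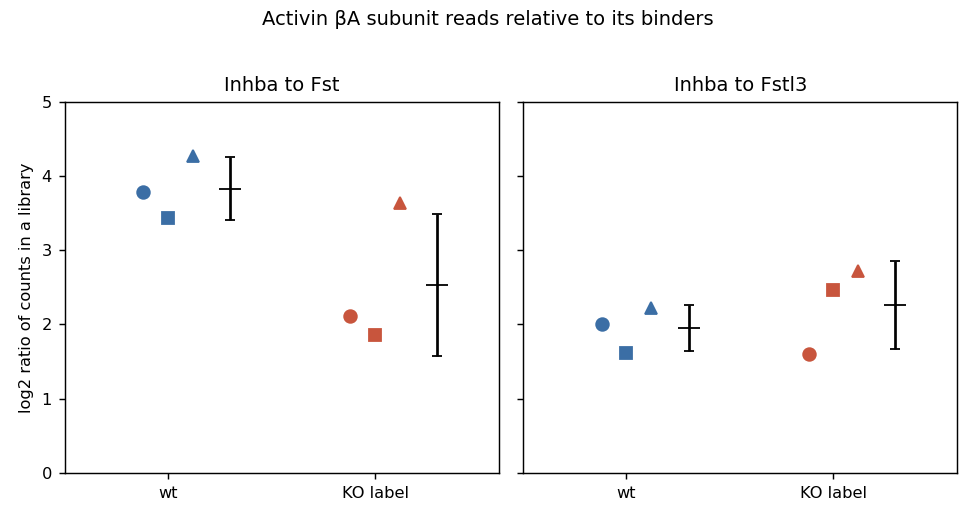
Log2 ratio of the counts of Inhba to Fst and of Inhba to Fstl3 in each library, wt in blue and knockout-labelled libraries in red, with circle, square and triangle for replicates 1, 2 and 3 and a bar for the mean and SD of 3 libraries. The ratio to Fst was near 2 in 2 knockout-labelled libraries and 3.63 in the third, beside 3.44 to 4.28 in wt LFs, and the ratio to Fstl3 overlapped between the groups.

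The promoters of the 3 called genes are shown because these genes were called in the same direction, although the reads of Fstl3 cannot be told apart from those of Prss57. They are the 250 bases before the transcription start in RefSeq (GRCm38.p6), from 5′ to 3′ on the strand of the gene, at chr13:16011601-16011850 on the plus strand for Inhba, chr8:70632457-70632706 on the minus strand for Gdf15 and chr10:79777024-79777273 on the plus strand for Fstl3. Capitals mark matches to the motifs searched on both strands.
Inhba: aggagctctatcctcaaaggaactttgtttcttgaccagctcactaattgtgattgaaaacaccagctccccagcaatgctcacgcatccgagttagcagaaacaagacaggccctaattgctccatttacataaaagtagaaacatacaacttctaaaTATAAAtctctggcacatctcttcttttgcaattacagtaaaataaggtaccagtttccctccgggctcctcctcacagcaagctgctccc
Gdf15: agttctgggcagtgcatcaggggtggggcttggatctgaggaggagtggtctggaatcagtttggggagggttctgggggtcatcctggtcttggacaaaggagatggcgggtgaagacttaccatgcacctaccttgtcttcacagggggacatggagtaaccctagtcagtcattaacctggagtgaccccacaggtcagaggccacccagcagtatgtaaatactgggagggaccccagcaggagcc
Fstl3: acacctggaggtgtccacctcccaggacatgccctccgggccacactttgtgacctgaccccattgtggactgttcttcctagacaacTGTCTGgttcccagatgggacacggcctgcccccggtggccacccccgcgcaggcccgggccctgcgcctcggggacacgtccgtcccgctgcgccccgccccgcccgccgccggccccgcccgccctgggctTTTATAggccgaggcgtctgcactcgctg
The motifs were those of AP-1 (TGANTCA), CRE-binding factors (TGACGTCA), ATF4 with C/EBP (TGATGNAA), Smad3 (CAGACA), TEAD factors (GGAATG) and the TATA box (TATAAA). The window of Inhba held TATAAA with its first base 91 bases before the start. That of Fstl3 held the same box on its reverse strand, first base 29 bases before the start, and CAGACA on its reverse strand 162 bases before the start. That of Gdf15 held none of these letters. Of the 9 members matched in RefSeq, Fst being the one without an entry, TATAAA stood in 3 (Inhba, Gdf11 and Fstl3) and CAGACA in 1. Among 32536 windows of this length TATAAA stood in 12.3%, CAGACA in 17.0%, GGAATG in 12.6%, TGANTCA in 6.73%, TGATGNAA in 3.40% and TGACGTCA in 1.56%. The GC content was 43.2% in the window of Inhba, 56.4% in that of Gdf15 and 71.2% in that of Fstl3, beside a median of 52.4%.

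Other genes of the pathway were taken from a list of 74, of which 49 were tested. Of these 49, 27 were called, 23 lower and 4 higher in the knockout-labelled libraries, where the shares over all genes tested were 22.1% and 22.8%, with a median log2 fold change of -0.65, beside -0.046 over all genes tested. The list was drawn up with earlier results of these data known, so its count and those of its groups below are descriptions. They are to be read beside these shares. In the alternative fits, 21 of the 27 genes were called in every fit they entered, and none changed sign. Some genes with low knockout-labelled counts passed the filter only through the wt libraries, among them Pcsk6, Tgfbi, Tgfbr1, Gdf10, Zfyve9 and Sesn2.

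Among the other ligands, 2 of 4 tested genes fell. Gdf1, not called, had 23, 32 and 29 counts in the wt libraries and then 26, 8 and 15. Cers1, which overlaps its end on the same strand, had 23, 32 and 29 and then 27, 8 and 15. The reads of Gdf1 and Cers1 cannot be told apart there. Gdf6, a skeletal patterning factor, had 48, 44 and 61 counts in the wt libraries and 12, 18 and 15 in the knockout-labelled libraries (log2 fold change -1.62, standard error 0.32, adjusted p = 2.80e-04). Gdf10, a relative of the bone morphogenetic proteins, fell by less, at -1.26 (adjusted p = 0.0171). This call was lost when wt replicate 2 (-0.99, adjusted p = 0.107), knockout-labelled replicate 2 (-1.16, adjusted p = 0.0606) or knockout-labelled replicate 3 (-0.92, adjusted p = 0.10) was left out, and after the correction for length and GC content (-0.89, adjusted p = 0.0896).

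Among the receptors and co-receptors, 3 of 9 tested genes fell and 1 rose, near the 44.9% called over all tested genes. Bmpr2, a type II receptor that activins can also bind, fell from 105, 118 and 81.2 CPM to 32.4, 32.8 and 25.6 CPM (-1.74, adjusted p = 3.12e-06). Tgfbr1, the type I receptor of TGFβ, fell by 2.05 on the log2 scale (adjusted p = 3.64e-05), from 42, 48 and 63 counts to 10, 14 and 9. The co-receptor endoglin, Eng, fell by 1.50 (adjusted p = 5.32e-05). Bambi, a decoy receptor that lacks the kinase domain, rose from 1, 1 and 5 counts to 30, 32 and 38 (adjusted p = 1.42e-06). It passed the filter through the knockout-labelled libraries alone, and with so few wt counts the size of its change was uncertain, with a fitted log2 value of 3.94 in all libraries and 4.80 without wt replicate 3.

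Among the secreted binders, 2 of 3 tested genes rose. Grem1, which encodes the bone morphogenetic protein antagonist gremlin, rose from 176, 150 and 224 CPM to 350, 295 and 303 CPM (0.78, adjusted p = 0.00399), but missed the threshold with library totals alone (0.36, adjusted p = 0.152) and with the authors' normalized counts (0.43, adjusted p = 0.130). Bmper, another binder of these ligands, rose by 1.03 on the log2 scale (adjusted p = 5.63e-04).

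Ligands of this family are made as pro-proteins, and 3 of the 6 tested genes that process them fell. Pcsk6, a proprotein convertase, fell from 50, 89 and 66 counts to 4, 2 and 14 (-3.23, standard error 0.44, adjusted p = 5.86e-06), and the log2 value was -4.26 without knockout-labelled replicate 3. It passed the filter through the wt libraries, and with so few knockout-labelled counts the size of its fall was uncertain. Furin, the main convertase of the secretory pathway, fell by 1.35 (adjusted p = 3.67e-05), from 284, 224 and 207 CPM to 113, 72.0 and 95.2 CPM. Bmp1, a protease that frees Gdf11 and myostatin from their propeptides, fell by 1.42 (adjusted p = 1.17e-05). Pcsk7 was called higher (1.95, adjusted p = 1.71e-06), with 680, 795 and 1247 counts in the wt libraries and 2929, 4125 and 2188 in the knockout-labelled libraries. Its end overlaps Tagln, a contractile gene on the opposite strand, which had 745, 845 and 1351 counts in the wt libraries and 3229, 4604 and 2361 in the knockout-labelled libraries. The count of Pcsk7 moved with that of Tagln, and the reads of the 2 genes cannot be told apart there.

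Of the Smads and their regulators, 6 of 10 tested genes fell, and the other 4 were not called. They included Ski and Skil, nuclear repressors of Smad signalling, at -1.04 (adjusted p = 3.34e-04) and -1.27 (adjusted p = 1.56e-04). The ubiquitin ligase Smurf1, which marks receptors and Smads for degradation, fell by 1.34 (adjusted p = 1.31e-04), and Zfyve9, which encodes the Smad anchor of endosomes, by 1.67 (adjusted p = 0.00133). The Smads themselves were not called: Smad2 was at -0.58 (adjusted p = 0.0643), Smad4 at -0.40 (adjusted p = 0.137), Smad3 at 0.12 (adjusted p = 0.708) and Smad7 at -0.14 (adjusted p = 0.773).

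Of the genes known to respond to Smad2 and Smad3, 5 of 8 tested fell, and the other 3 were not called. Among those not called, Foxp3 had 6, 14 and 23 counts in the wt libraries and then 11, 17 and 20. Ccdc22, which overlaps its end on the opposite strand, had 5, 14 and 23 and then 11, 15 and 19. The reads of these 2 genes cannot be told apart there. Ltbp2, a matrix protein of microfibrils, fell from 408, 431 and 333 CPM to 102, 65.0 and 73.2 CPM (-2.29, adjusted p = 8.27e-08). Pmepa1, a feedback inhibitor of Smad signalling, fell from 790, 924 and 749 CPM to 320, 281 and 326 CPM (-1.41, adjusted p = 8.43e-06). Cdkn1a, the cell cycle inhibitor p21, fell by 1.09 (adjusted p = 5.17e-04). Tgfbi, a secreted matrix protein, fell from 17, 22 and 125 counts to 7, 5 and 4 (-3.01, adjusted p = 0.00163), and by 1.94 without wt replicate 3 (adjusted p = 0.00416). It passed the filter through the wt libraries alone, and with so few knockout-labelled counts the size of its fall was uncertain.

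Gdf15 is known as a gene induced by cell stress, and other stress genes were taken as the last group. Of its 9 tested genes 3 fell and the other 6 were not called, where 44.9% of all tested genes were called. Ddit3, not called, had 212, 245 and 389 counts in the wt libraries and then 280, 206 and 263. Mars, which overlaps its end on the opposite strand, had 215, 245 and 390 and then 290, 218 and 266. The reads of these 2 genes cannot be told apart there. Trp53inp1 fell from 36.7, 39.1 and 36.0 CPM to 10.4, 7.61 and 8.70 CPM (-2.05, adjusted p = 5.41e-06), Sesn2 by 1.47 (adjusted p = 0.00182) and Mdm2, the ubiquitin ligase of p53, by 1.05 (adjusted p = 0.00225).

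**Figure D5:**
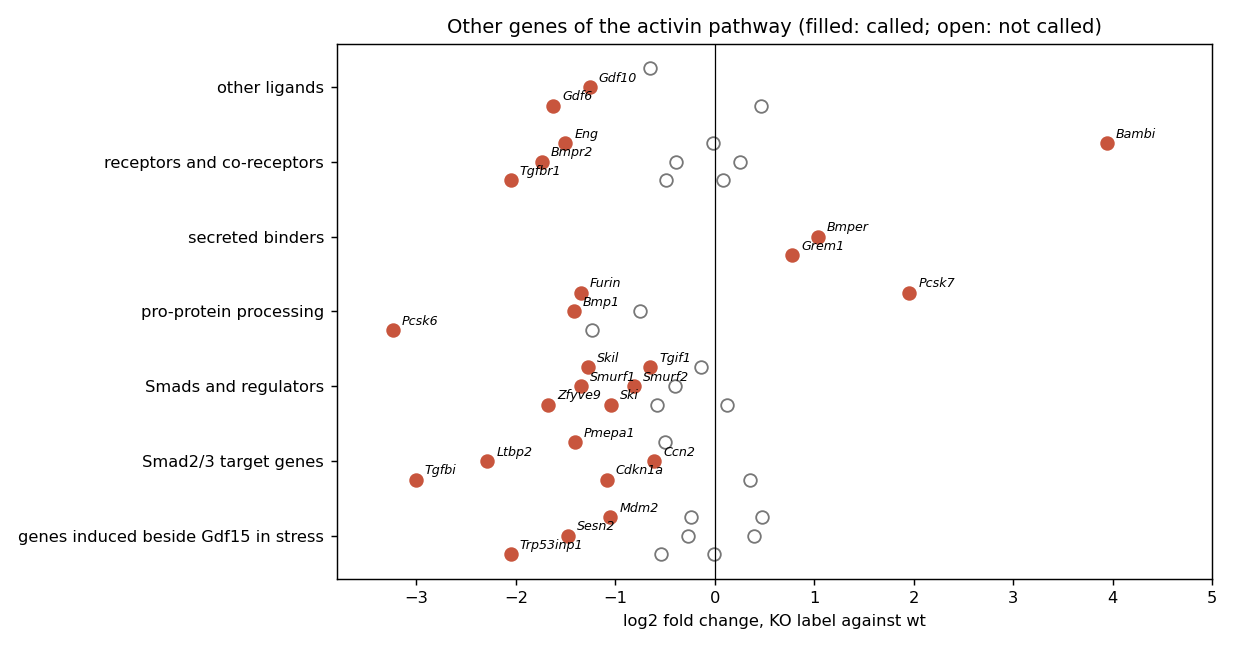
Log2 fold change of tested genes of the pathway list, knockout-labelled libraries against wt, by group of the list, filled and named where called and open where not, with 2 genes left out. Most called genes lay below 0, and those above 0 were Bambi, Bmper, Grem1 and Pcsk7, of which Pcsk7 shares its end with Tagln.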

How the data were processed

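RNA of 3 wt and 3 libraries labelled TKS5 knock-out of TGFβ-treated LFs was sequenced by Quant-Seq. Reads were trimmed (Trim Galore) and aligned to GRCm38 (HISAT2, then BOWTIE2 for the unmapped ones) by the authors, who counted them on the untranslated ends of transcripts with metaseqR2 and summed them per gene into the deposited raw counts. Whether this counting kept the strands apart is not given in the sources used here. The deposited normalized counts were made by the authors with EDASeq and rounded, and are treated here as a score. They hold the same sorted values in all 6 libraries. Genes with overlapping ends can hold the same reads.

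The raw counts were tested with edgeR 4.0.16 in R 4.3.3 (genes kept by filterByExpr, TMM factors, robust quasi-likelihood fit, Benjamini-Hochberg adjustment over 10346 genes). Library totals, 1344507 to 2369882 counts, set the precision, and standard errors cover the spread between libraries. The factors of the TMM method were 1.15 to 1.17 in wt LFs and 0.817 to 0.932 in the libraries labelled knockout. Within-library ratios had a prior count of 0.5 and exact permutation tests. Alternatives were DESeq2 1.42.0, limma-voom and limma 3.58.1 on log2(normalized count + 1), RLE, upper-quartile and library-total scaling, no filter, at least 10 counts in every library, a loess correction for transcript length and GC content, no fold change threshold, the replicate number as a block, prior counts of 0 and 5, and each library left out. The fit was checked on simulated data in which 200 of 10346 genes changed, far fewer than were called here. There edgeR called 45% of the 2-fold and 94% of the 4-fold changes, and 5.44% of its calls were false. Symbols and coordinates came from GENCODE and were found for 55104 of 55364 genes. Promoters came from RefSeq (GRCm38.p6), each repeated sequence taken 1 time. Named are the 10 members, Sh3pxd2a, genes that overlap a member and, of each group of the pathway list, up to 4 called genes with the smallest adjusted p. Smad2, Smad3, Smad4, Smad7, Tagln and the cell type markers were named after their values were seen. So were Foxp3, Ddit3 and Gdf1 with their overlapping genes Ccdc22, Mars and Cers1. Some genes of the pathway list are not reported here. The members, lists and tests were chosen with earlier results of these data known. No library was left out of the main comparison.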

Additional observations from a re-analysis of the deposited data

How the results depend on the processing

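Gdf15 and Fstl3 kept their direction and their call in all 16 alternative fits. Inhba kept its direction in all 16 and its call in 11. Its log2 fold change was -0.29 with the correction for transcript length and GC content, where it was not called, and ran from -0.90 to -0.46 with each library left out, where 4 of 6 fits lost the call. Fst was called with RLE scaling (0.72), and ran from 0.51 to 0.97 with each library left out. Gdf11 was called with the correction for length and GC content (0.66) and turned to -0.042 with library totals alone, and Acvr2a was called with library totals alone (-1.04). Fstl1 turned to -0.27 with library totals alone and to -0.53 with the authors' normalized counts, and ran from -0.060 to 0.45 with each library left out. Acvr1 turned to -0.36 with library totals alone, to -0.013 with limma-voom, to -0.013 with at least 10 counts in every library and to -0.0090 with the correction for length and GC content, and ran from -0.26 to 0.30 with each library left out. The difference in the log2 ratio of Inhba to Fstl3 was -0.31 with the authors' normalized counts, and that of Inhba to Fst kept its direction in 9 alternatives (-1.86 to -0.96). The causes of these changes were not tested, other than that library totals alone took the median over all genes (log2) from -0.046 to -0.47 and the calls to 1362 higher and 3944 lower.

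Over the alternatives 3705 to 5306 genes were called in the whole table, 2 to 4 of the members and 21 to 37 of the pathway list. Replicate numbers did not pair the libraries: deviations of same-numbered libraries from their group means correlated at -0.0010, -0.064 and 0.082. With the replicate number as a block 4668 genes, 3 members and 28 genes of the pathway list were called, and Inhba was at -0.67 (adjusted p = 0.0114). Counts of 13 to 75 a library behind Gdf15, Fst, Gdf11 and Acvr2a limit what can be seen of them, as the width of their intervals shows.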
